A study of Mus musculus with 28 samples.

Results

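miR-872 was examined through both of its arms, mmu-mir-872-5p and mmu-mir-872-3p, which are 2 of the 607 miRNAs listed in the alveolar macrophage (AM) miRNome of SP-A1/SP-A2 co-expressing and SP-A knockout mice. Both rows are listed in each of the 4 deposited tables, which hold 368 miRNAs in co-ex females, 412 in co-ex males, 403 in KO females and 565 in KO males, with 308 in common. The hairpin was chosen by the per-library values and recovered reads of these rows after ozone (O3) against filtered air (FA), for being higher after O3, so the difference between O3 and FA is given as a description with no test, and tests are kept for sex, genotype and the ratio of the arms. On the group means that description held for mmu-mir-872-5p in all 4 tables, but for mmu-mir-872-3p in only 3 of them, since in co-ex females the 3p arm was not higher after O3. Of the 308 miRNAs listed in every table, 29 (9.42%) had a higher mean after O3 in all 4, and mmu-mir-872-5p was one of these.

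The co-ex animals were humanized transgenic mice carrying the SP-A1 and SP-A2 variants 6A2/1A0, bred on C57BL/6J mice whose own SP-A is knocked out, and the KO animals lacked SP-A, so every library came from mice without mouse SP-A. The labels give the strain as C57BL/6 for both. Mice of either sex, 12 weeks old, breathed FA or O3 for 3 h, and AM were collected from bronchoalveolar lavage after 4 h of recovery. Each co-ex group holds 4 libraries and each KO group 3, which makes 28 libraries in 8 groups. The study treats its libraries as separate mice, and they are taken as such here. The co-ex libraries carry 1 series of library numbers and the KO libraries another, and the labels name no batch, so a difference between genotypes cannot be told apart from a difference between these series. The KO numbers run from 118 to 126 in 9 libraries, of which 3 are FA and 6 are O3, and then from 137 to 140 in 3 libraries that are all FA (replicates 2 and 3 of KO females and replicate 3 of KO males). Values within the first of these runs are given beside the KO results.

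The reads assigned to listed miRNAs ranged from 41542 to 2082034 per library, with a median of 490152. Co-ex female libraries were the shallowest (41542 to 488993 reads) and KO male libraries the deepest (919150 to 2082034 reads). The deposited values are reads divided by a scaling factor of each library, and each table was scaled separately, so they are compared within a table only, while RPM, the reads of a miRNA scaled to a common total of listed miRNA reads, are used across tables. All 7 miRNAs of a myeloid list that includes miR-223-3p and miR-142a-3p were listed in every table, with a summed level of 42511 to 223181 RPM. On group means most of that sum was miR-21a-5p, at 64782.5 to 133638 RPM. Group means were 2924.2 to 12933.5 RPM for miR-223-3p and 43.9 to 227.0 RPM for miR-142a-3p. All 11 miRNAs of a list for airway and alveolar epithelium were listed as well, and their level is given beside the miR-872 values below. KO male FA replicate 3 stood apart from the other FA libraries of its group, with 41362 RPM of a list for mesenchyme and endothelium against 1231 and 1195 RPM, and 42511 RPM of the myeloid list against 223181 and 166608 RPM. Results that rest on it are given with and without it, except correlations, which are given over all 28 libraries only. In bulk libraries of this kind fewer cells of a type and less RNA per cell cannot be told apart.

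A miRNA gene is transcribed as a hairpin whose stem is cut first by Drosha in the nucleus and then by Dicer in the cytoplasm, leaving a short duplex of the 5p and the 3p arm. One strand of the duplex is loaded into an Argonaute protein and guides it to messenger RNAs, mainly through the seed near its 5′ end, and the other strand is usually degraded. Which arm is kept, and how strongly, differs between miRNAs and can differ between tissues, and the 5p arm is the one usually given as the main product of miR-872.

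The sequences of the hairpin and its arms are shown because the arms carry different seeds and moved differently in these libraries. They come from RefSeq on the mouse assembly GRCm38.p6 and are written 5′ to 3′, with capitals marking the arms in the hairpin and the seed (bases 2 to 8) in each arm.
Mir872 hairpin: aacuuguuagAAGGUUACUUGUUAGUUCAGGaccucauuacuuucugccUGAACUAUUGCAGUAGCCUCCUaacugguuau
mmu-mir-872-5p: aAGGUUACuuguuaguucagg
mmu-mir-872-3p: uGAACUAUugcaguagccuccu

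The hairpin of 81 bases lies on the plus strand at chr4:94665157-94665237. The 5p arm of 21 bases is at chr4:94665167-94665187 (hairpin positions 11 to 31) and the 3p arm of 22 bases at chr4:94665206-94665227 (positions 50 to 71). In the GENCODE annotation of the same assembly the hairpin is in intron 13 of the principal transcript of Ift74, on the strand of that gene, 2490 bases after the exon before it and 13027 bases before the next. Ift74 spans chr4:94614491-94693229 and codes for a subunit of the intraflagellar transport B complex, which carries cargo along cilia. No other miRNA gene lies within 50 kb, and the only other gene annotated there is Lrrc19, on the minus strand 15013 bases away.

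None of the 1679 mature mouse miRNAs in the reference table shares the seed of either arm, so miR-872 forms seed families of 1 member each here. The nearest mature sequences differ by 7 edits from the 5p arm (mmu-miR-7659-3p) and by 8 edits from the 3p arm (mmu-miR-434-3p and mmu-miR-6901-5p). An exact match to either arm was found in no annotated transcript other than Mir872 itself, among 141767 searched, so no other annotated locus of identical sequence shares these reads.

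The predicted fold of the hairpin, drawn in the map of its base pairs, has a minimum free energy of -31.4 kcal/mol and 28 base pairs. Of these, 17 join the arms to each other, and 19 bases of each arm are paired. A run of 18 bases separates the arms.

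**Figure D1:**
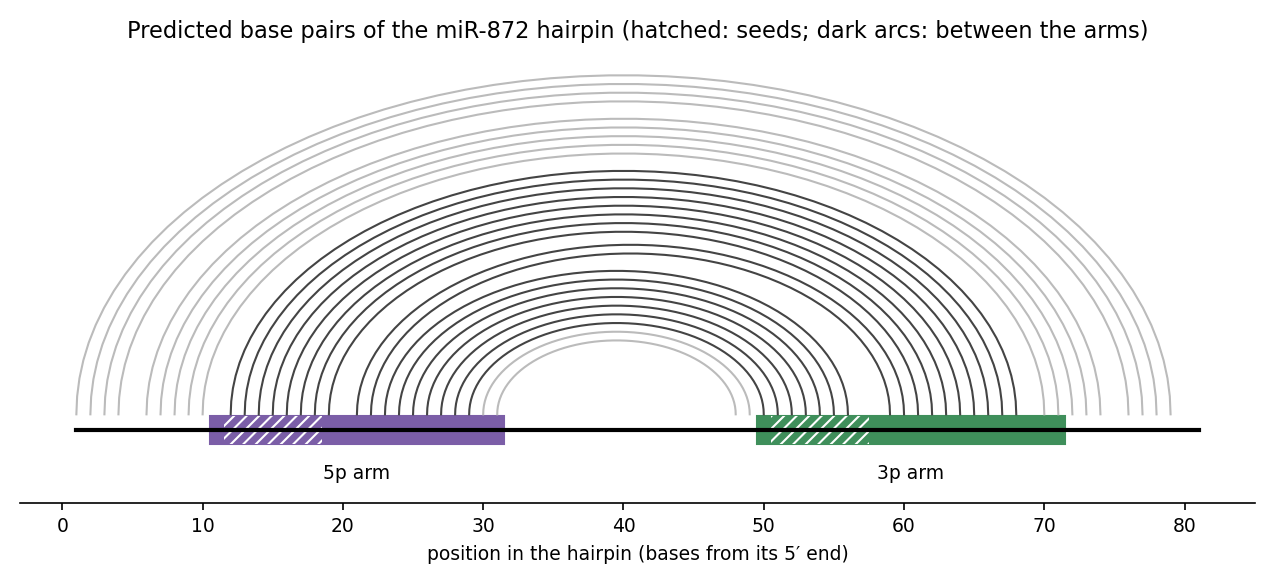
Predicted base pairs of the miR-872 hairpin, by position from its 5′ end; arcs join paired bases, dark arcs join the arms, coloured boxes are the 5p arm (positions 11 to 31) and the 3p arm (positions 50 to 71), and hatching marks the seeds. A total of 17 of the 28 pairs lie between the arms.

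The first comparison asked how each arm stood after O3 against FA in each sex and genotype. mmu-mir-872-5p was higher on average after O3 in all 4 tables, by 3.85-fold to 10.8-fold on pooled RPM. The pooled fold in co-ex males of 4.86 rests on O3 replicate 2, which holds 95 of the 111 reads after O3, and without it the pooled levels were 14.4 RPM after O3 and 14.8 RPM after FA. That in KO females of 10.8 rests on few FA reads, 54 of 63 of them in replicate 1, and leaving out each library in turn gave 6.29-fold to 46.0-fold. In 3 of the tables every O3 library lay above every FA library, and the exception was co-ex males. mmu-mir-872-3p was higher on average in co-ex males, KO females and KO males and close to even in co-ex females.

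**Figure D2:**
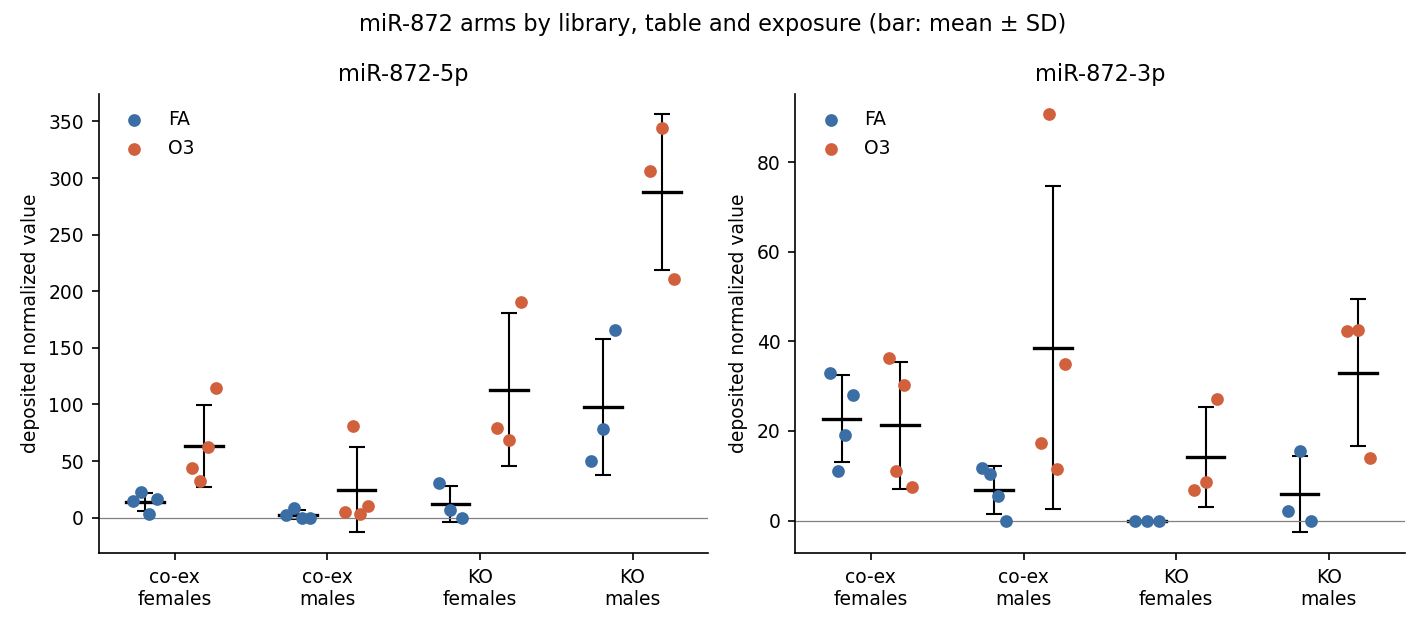
Deposited normalized values of mmu-mir-872-5p (left) and mmu-mir-872-3p (right), one point per library, by table and exposure, with bars at the mean ± SD (n = 4 for co-ex groups and n = 3 for KO groups). Each table has its own scale; the 5p values after O3 lie above all FA values except in co-ex males, and the 3p values of co-ex females overlap.

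In co-ex females mmu-mir-872-5p stood at 14.5, 22.5, 3.49 and 16.3 after FA and at 44.2, 32.7, 62.1 and 114.5 after O3 (deposited normalized values). The means were 14.2 ± 7.91 (SD, n = 4) after FA and 63.4 ± 36.2 (SD, n = 4) after O3, and the groups did not overlap, which was so for 1.48% of the 271 miRNAs that passed the filter on low values in this table. The difference on log2(value + 1) was 2.15 (SE 0.77), the 2nd highest of the 271, whose median was -0.16. These values rest on few reads, from 2 in the shallowest FA value to 185 in the highest O3 library.

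For mmu-mir-872-3p the same co-ex female libraries gave 32.9, 11.1, 19.2 and 27.9 after FA and 36.2, 11.2, 30.2 and 7.43 after O3. The groups overlapped throughout, with means of 22.8 ± 9.63 and 21.2 ± 14.1 (SD, n = 4 each), and the log2 difference of -0.25 (SE 0.81) was smaller than its error. It ranked 149th of the 271. On pooled RPM the fold was 0.987, while that of the 5p arm from the same hairpin was 4.13.

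In co-ex males mmu-mir-872-5p was near the floor after FA, at 2.35, 8.21, 0 and 0, and after O3 it stood at 4.57, 81.2, 2.88 and 10.6. Only 2 of the 4 O3 libraries exceeded every FA library, and the mean after O3 of 24.8 ± 37.7 (SD, n = 4) was set by replicate 2. The arm did not pass the filter here, which asks for a value of at least 5 in 4 libraries. Without the filter the log2 difference was 2.35 (SE 1.16), and without O3 replicate 2 it was 1.42.

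mmu-mir-872-3p reached 11.8, 10.5, 5.45 and 0 after FA in co-ex males and 17.4, 90.6, 11.5 and 34.9 after O3. Here 3 of the 4 O3 libraries lay above every FA library, and complete separation was seen for 2.24% of the 312 miRNAs that passed the filter. The log2 difference was 2.41 (SE 0.99), 7th of 312, and without FA replicate 4, which held no read, it was 1.59. Pooled RPM were 26.6 after FA and 106.2 after O3, a fold that was 1.96 without O3 replicate 2. The highest value of both arms came from the same library, O3 replicate 2.

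In KO females mmu-mir-872-5p stood at 30.5, 6.59 and 0 after FA and at 78.9, 68.9 and 190.7 after O3, with no overlap. Complete separation was common in this table, at 19.1% of the 319 miRNAs that passed the filter. The means were 12.4 ± 16.0 and 112.8 ± 67.6 (SD, n = 3 each), and the log2 difference of 4.04 (SE 1.34) ranked 21st of 319. It ranged from 2.73, without the FA library that held no read (replicate 3), to 5.21, without FA replicate 1. Within the first run of library numbers FA replicate 1 alone remained, and it lay 1.70 below the O3 mean on the log2 scale.

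No read of mmu-mir-872-3p was found in the 3 KO female FA libraries, among 2560561 reads in all, which allows a level of up to 1.17 RPM over the group. After O3 the values were 6.79, 8.61 and 27.0, from 8, 2 and 35 reads. The pooled level after O3 of 33.6 RPM was at least 28.7-fold higher than that limit. The arm passed the filter only through the O3 libraries, and its fitted log2 difference depends on the pseudocount (1.79 to 6.88 for pseudocounts of 5 and 0.1).

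In KO males mmu-mir-872-5p stood at 49.8, 78.0 and 165.7 after FA and at 306.6, 344.6 and 210.8 after O3. The groups did not overlap, as for 7.73% of the 440 miRNAs that passed the filter. The means were 97.8 ± 60.4 and 287.3 ± 68.9 (SD, n = 3 each), and the log2 difference of 1.69 (SE 0.58) ranked 50th of 440. Without FA replicate 3, the library that stood apart and the only one of this table with a later number, it was 2.16. On pooled RPM the fold was 3.85, the smallest of the 4 tables for this arm with all libraries. It was 5.07 without FA replicate 3, so that place rests on this library.

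mmu-mir-872-3p stood at 2.03, 15.6 and 0 after FA in KO males and at 42.3, 42.6 and 14.1 after O3. The groups overlapped, since O3 replicate 3 lay below FA replicate 2. The log2 difference was 3.05 (SE 1.16), 15th of 440, and 2.11 without FA replicate 3. The pooled levels were 5.52 RPM after FA and 29.5 RPM after O3, and of the FA reads 21 came from replicate 2 and 2 from replicate 1.

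The O3 difference was also set side by side between tables. For mmu-mir-872-5p the change in the log2 difference was -2.35 (SE 1.51) for KO males minus KO females and -1.89 (SE 1.46) for co-ex females minus KO females. Both rest on the KO female FA libraries: the former was -3.52 without replicate 1 and -1.04 without replicate 3, and the latter -3.06 and -0.57. For mmu-mir-872-3p it was -3.93 (SE 1.27) for co-ex females minus KO females and 2.66 (SE 1.26) for co-ex males minus co-ex females. The first of these 3p values contains the KO female FA group without reads, and the contrasts carry no p because they use the values that chose the hairpin.

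Across the 8 groups the level of mmu-mir-872-5p ran from 402 ± 225 RPM (SD, n = 4) in co-ex females after O3 down to 7.70 ± 11.7 RPM in co-ex males after FA. Between them came KO males after O3 (244 ± 65.1), KO females after O3 (230 ± 138), co-ex females after FA (90.9 ± 49.0), KO males after FA (69.0 ± 40.0), co-ex males after O3 (68.7 ± 102.1) and KO females after FA (21.6 ± 28.4 RPM). No 2 neighbours in this order differed by more than their spread, judged by whether their mean ± SD ranges overlapped. The highest and the lowest group were both co-ex, of opposite sex.

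The order of the 3p arm was different. mmu-mir-872-3p was highest in co-ex females, at 149 ± 69.6 RPM after FA and 135 ± 88.4 RPM after O3, followed by co-ex males after O3 at 109 ± 97.6 RPM (SD, n = 4 each). KO groups and co-ex males after FA lay lower, at 28.9 ± 22.9 (KO females, O3), 28.2 ± 14.5 (KO males, O3), 19.4 ± 14.8 (co-ex males, FA), 4.39 ± 6.41 (KO males, FA) and 0 RPM (KO females, FA). Every pair of neighbours again overlapped within mean ± SD, and both KO groups after O3 were below all 3 of the highest co-ex groups in mean.

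The second comparison set males against females within a genotype and exposure, which the choice of the hairpin did not use. Reads were tested with edgeR's quasi-likelihood test and Benjamini-Hochberg adjustment over all miRNAs tested, with a threshold of 0.1. Neither arm passed in any of the 4 settings. The background was 13.9% of 238 miRNAs in co-ex mice after FA, 7.79% of 244 in co-ex mice after O3, and 0% in KO mice after either exposure.

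In co-ex mice mmu-mir-872-5p was lower in males after O3, at 12.9, 220.9, 7.73 and 33.3 RPM against 264.8, 210.9, 422.7 and 711.2 RPM in females. A single male library, replicate 2, reached the female range. The log2 difference was -2.57 (SE 0.92) with an adjusted p of 0.128 in edgeR. Leaving out each library in turn gave edgeR adjusted p from 0.00952, at -4.50 without that male library, to 0.306. The lowest follows from dropping a library for its level, so it is not a test of the difference. After FA the arm did not pass edgeR's filter, and without the filter the difference was -2.86 with an adjusted p of 0.254.

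For mmu-mir-872-3p the co-ex sexes differed after FA by -2.75 (SE 1.03; edgeR, adjusted p 0.124), with males at 30.5, 31.4, 15.8 and 0 RPM and females at 213.9, 65.4, 117.6 and 197.6 RPM. These groups did not overlap, although the difference missed the threshold. The share of all miRNAs without overlap in this comparison was not counted, while 24.4% of 238 had an unadjusted edgeR p under 0.05. With each library left out in turn the edgeR adjusted p ran from 0.0935, at -2.95 without female FA replicate 2, to 0.376. After O3 the 3p arm gave -0.19 (SE 0.79; edgeR, adjusted p 0.880).

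In KO mice the sexes stood close after O3, with a log2 difference of 0.15 (SE 0.46; edgeR, adjusted p 0.995) for mmu-mir-872-5p and -0.02 (SE 0.84; edgeR, adjusted p 0.996) for mmu-mir-872-3p. After FA the 5p difference was 1.75 (SE 1.57; edgeR, adjusted p 0.716), and 0.97 without KO male FA replicate 3, and the 3p arm did not pass the filter. In these KO settings edgeR called 0 of 301 and 0 of 311 miRNAs, DESeq2 called 11 and 7 of 386, and the unadjusted p of edgeR was under 0.05 for 23 and 28.

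The third comparison set co-ex against KO within a sex and exposure. mmu-mir-872-3p was read in every co-ex female library after FA and in no KO female library after FA. In the other settings the 3p arm had a positive and the 5p arm, in males, a negative difference, none past the threshold. The share of miRNAs called was 29.1% of 285 in females after FA (19.6% for those higher in co-ex), 10% of 259 in females after O3, 2.44% of 328 in males after FA and 17% of 312 in males after O3.

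**Figure D3:**
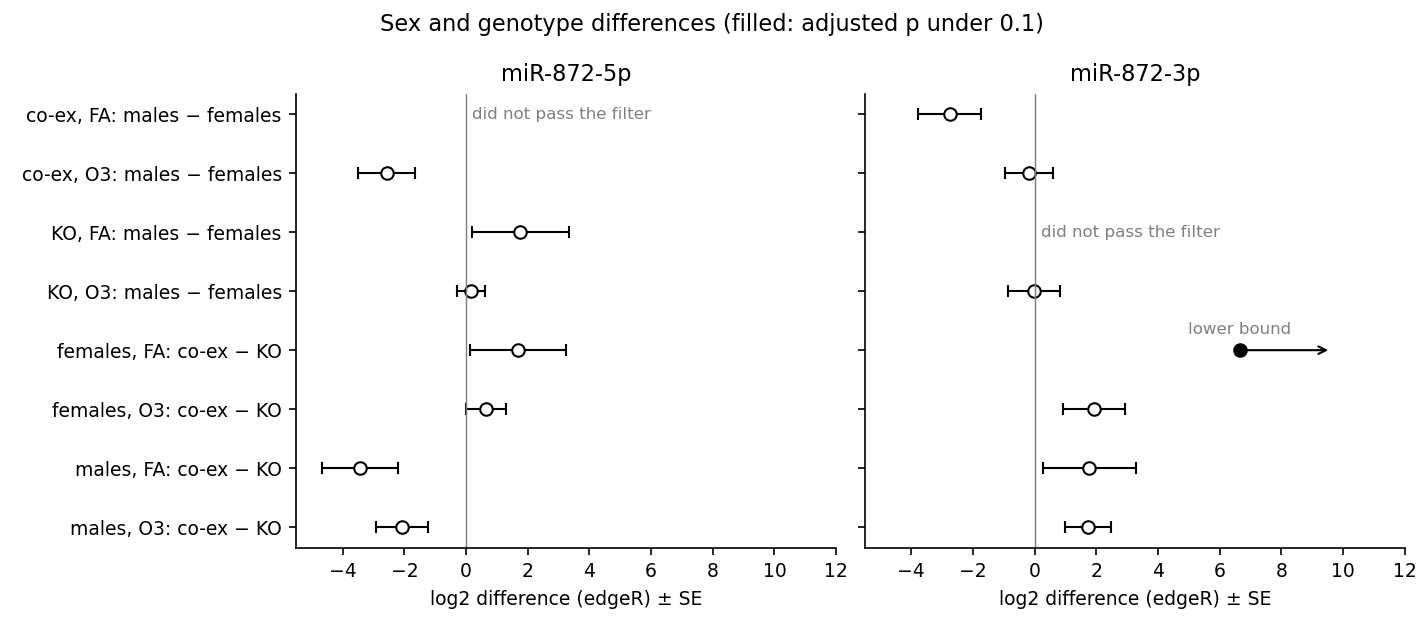
Log2 differences of mmu-mir-872-5p (left) and mmu-mir-872-3p (right) between sexes and between genotypes from edgeR, with bars of ± 1 SE; filled points passed an adjusted p of 0.1. The one filled point, 3p in females after FA, is drawn at the lower bound of at least 100.7-fold because KO females had no reads, and it passed the filter on low counts only through the co-ex libraries.

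In females after FA the 4 co-ex libraries held 213.9, 65.4, 117.6 and 197.6 RPM of mmu-mir-872-3p, from 11 to 36 reads each, and the 3 KO libraries held no read although each had 744541 reads or more. The pooled co-ex level of 118 RPM was at least 100.7-fold higher than the 1.17 RPM that a count of 0 allows. The adjusted p was 0.00678 in edgeR, but with every KO library at 0 the arm passed the filter only through the co-ex libraries, so that the comparison is a description. The only KO library of the first run of numbers in this comparison is replicate 1. mmu-mir-872-5p in the same libraries gave 1.69 (SE 1.55; edgeR, adjusted p 0.515).

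After O3 the female difference of mmu-mir-872-3p was 1.91 (SE 1.01; edgeR, adjusted p 0.267), with co-ex at 216.6, 72.1, 205.3 and 46.1 RPM and KO at 13.5, 18.0 and 55.1 RPM. A single KO library overlapped the co-ex range. The 5p arm gave 0.65 with an adjusted p of 0.576 in edgeR.

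In males the arms had opposite signs. mmu-mir-872-5p was lower in co-ex than in KO by a log2 difference of -3.44 (SE 1.22; edgeR, adjusted p 0.170) after FA, -2.80 without KO male FA replicate 3 (edgeR, adjusted p 0.213), and -2.08 (SE 0.84; edgeR, adjusted p 0.125) after O3. mmu-mir-872-3p was higher in co-ex by 1.78 (SE 1.50; edgeR, adjusted p 0.504) after FA and 1.74 (SE 0.75; edgeR, adjusted p 0.142) after O3. None of these passed the threshold.

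The difference between genotypes was itself compared between the sexes in a fit of all 8 groups, a test added after the values were seen. After FA it was lower in males for both arms, by a fitted log2 value of -4.56 (SE 1.62; edgeR, adjusted p 0.0809) for mmu-mir-872-5p and -7.13 (SE 1.91; edgeR, adjusted p 0.0238) for mmu-mir-872-3p, where 15.5% of 303 miRNAs were called. The 5p call was lost without some libraries (adjusted p up to 0.246, without KO male FA replicate 3), and the 3p value contains the KO female group without a read, so that it is a description whose size depends on the prior count. After O3 neither arm passed, with 0.33% of miRNAs called.

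The 5p values behind the male difference after O3 were 12.9, 220.9, 7.73 and 33.3 RPM in co-ex against 260.8, 299.2 and 172.3 RPM in KO. Co-ex male O3 replicate 2 alone lay within the KO range. With each library left out in turn the edgeR adjusted p ran from 0.0022, at -3.91 without that replicate, to 0.296. The lowest again follows from dropping a library for its level. After FA co-ex males had 6.11, 24.7, 0 and 0 RPM and KO males 35.1, 58.8 and 113.1 RPM, so these groups did not overlap although the difference missed the threshold. How many of all miRNAs separated in this way was not counted, while 18.9% of 328 had an unadjusted edgeR p under 0.05.

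The ratio of the arms within a library needs no scaling between libraries, and it was lower in co-ex than in KO mice of either sex. The 5p arm made up 89.9% of the 1887 reads of both arms in KO libraries and 59.1% of the 972 reads in co-ex libraries. In KO mice 5p reads exceeded 3p reads in 11 of 12 libraries, the exception having no read of either arm. In co-ex mice 3p reads exceeded 5p reads in 10 of 16 libraries and 5p reads exceeded 3p reads in 5.

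**Figure D4:**
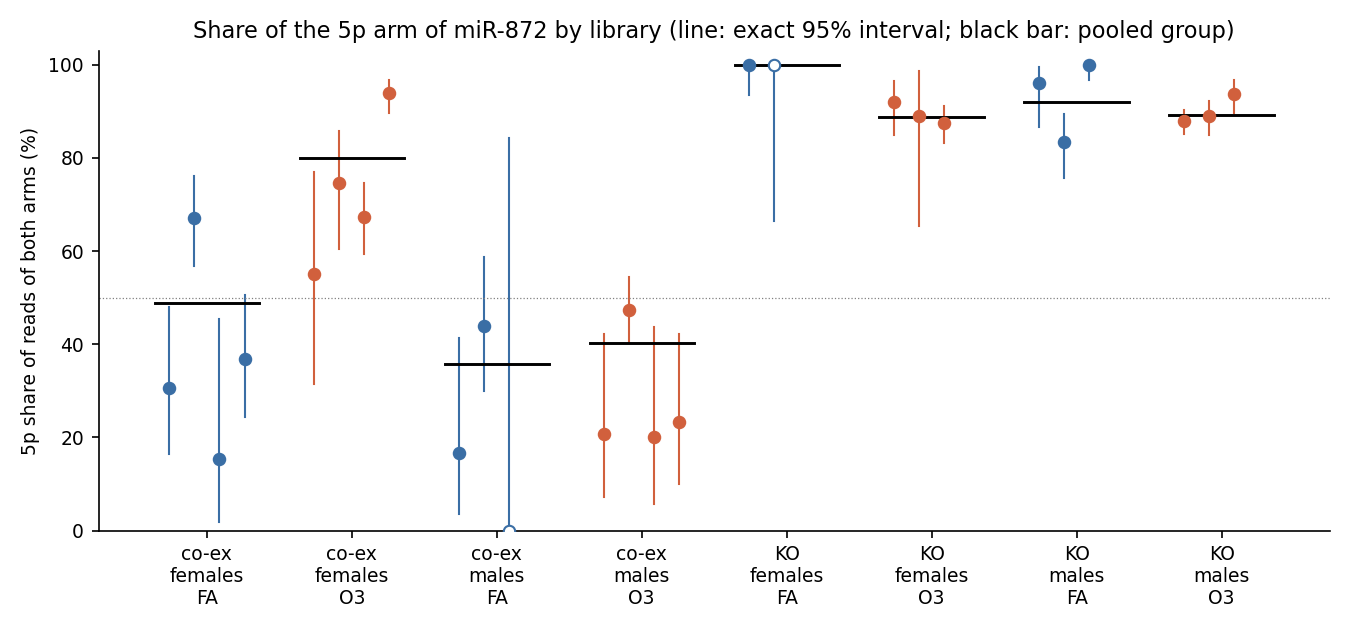
Share of mmu-mir-872-5p in the reads of both arms, in percent, one point per library with its exact 95% interval (Clopper-Pearson), black bars at the pooled share of the group; open points have fewer than 10 reads and libraries without a read are left out. KO libraries with at least 10 reads lie between 83.3% and 100%, while co-ex males with at least 10 reads lie between 16.7% and 47.3%.

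In co-ex females the 5p share was 30.6%, 67.0%, 15.4% and 36.8% after FA and 55%, 74.5%, 67.3% and 93.9% after O3. The 3p arm was the more abundant in 3 of the 4 FA libraries and in none of the O3 libraries. The exact 95% intervals, which cover counting error only, ran from 1.92% to 45.4% for the 13 reads of FA replicate 3 and from 89.6% to 96.8% for the 197 reads of O3 replicate 4. Pooled over libraries the share was 48.8% after FA and 80.0% after O3, and this shift is a description since it uses the contrast that chose the hairpin.

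Co-ex males kept more 3p than 5p reads after both exposures. With at least 10 reads the shares were 16.7% and 44% after FA and 20.8%, 47.3%, 20% and 23.3% after O3. The remaining FA libraries held 2 and 0 reads of both arms together and say little about the ratio. The library that stood apart in level, O3 replicate 2, had the highest share of the males, at 47.3% of 201 reads (exact 95% interval 40.2% to 54.4%).

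KO libraries held a narrow range. The shares were 92.1%, 88.9% and 87.6% in KO females after O3, 96.1%, 83.3% and 100% in KO males after FA, and 87.9%, 89.0% and 93.8% in KO males after O3. In KO females after FA all 63 reads were 5p, in 2 libraries of 54 and 9 reads, and the third library held none.

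The mean log2 ratio of 5p to 3p reads, with 0.5 read added to each arm, was compared by an exact two-sided permutation test over libraries within FA and within O3. It was lower in co-ex than in KO by -5.31 in males, at -1.29 (n = 8) against 4.02 (n = 6), with an exact p of 0.000816, the smallest that these libraries can give, and 0.00327 after adjustment over the 4 comparisons made. In females it was lower in co-ex by -2.88, at 0.45 (n = 8) against 3.33 (n = 6), with an exact p of 0.0163 and 0.0327 after adjustment. By exposure the female means were -0.78 in co-ex and 3.67 in KO after FA, and 1.68 and 2.99 after O3. After FA no KO female library held a 3p read, so the size of the female difference depends on the added reads. After O3 the 5p shares of co-ex females, 55% to 93.9%, overlapped those of KO females, 87.6% to 92.1%. The comparison in females counts KO female FA replicate 3 and that in males co-ex male FA replicate 4, which hold no read of either arm and whose ratio comes from the added reads only. Without them, a setting added with the values known, the differences were -5.51 in males (exact permutation p 0.00143, 0.00571 after adjustment) and -3.80 in females (exact permutation p 0.00762, 0.0152 after adjustment). With KO libraries of the first run of numbers only, they were -4.56 (exact permutation, adjusted p 0.00762) and -4.43 (exact permutation, adjusted p 0.0348). The same test on every hairpin with both arms listed gave an exact permutation p under 0.05 for 37.1% of 89 hairpins in males. In females it did so for 35% of 60, so arm ratios differed between co-ex and KO libraries for many hairpins. Genotype and series of library numbers cannot be told apart in any of these differences. Among the hairpins tested the size of the miR-872 difference ranked 2nd of 89 in males and 8th of 60 in females. The exact permutation p adjusted over all hairpins was 0.00807 and 0.0816.

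Between the sexes the ratio was lower in co-ex males than in co-ex females by -1.74 (exact permutation p 0.0261, 0.0348 after adjustment over the 4 comparisons), where 20.9% of 67 hairpins had a p under 0.05 and the adjusted p over all of them was 0.175. In KO mice the difference was 0.68 (exact permutation p 0.560), with 9.64% of 83 hairpins under 0.05. Without the libraries that hold no read of either arm, the difference was -1.94 in co-ex mice (exact permutation, adjusted p 0.0223) and -0.23 in KO mice. Kept to libraries with at least 10 reads, the KO difference was -0.86, so its sign was not settled, while that in co-ex mice was -1.76 (exact permutation, adjusted p 0.0533) and the genotype differences were -5.33 in males and -4.43 in females.

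The miRNAs most like each arm over the 28 libraries were named by Pearson's r on log2(value + 1) after centring each table on its mean, among 229 other miRNAs that passed the filter in every table. These correlations are descriptions, since the libraries share their exposure and depth. For mmu-mir-872-5p the highest were miR-30a-5p (0.78), miR-200a-3p (0.75), miR-429-3p (0.71), miR-30a-3p (0.71) and miR-200c-3p (0.69), against a median r of 0.11. Of these, miR-200a-3p, miR-429-3p and miR-200c-3p belong to the miR-200 family, which is typical of epithelial cells and represses the transcription factors ZEB1 and ZEB2. Centred on the mean of each exposure group instead, the same 5 gave an r of 0.41 to 0.64.

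For mmu-mir-872-3p the highest were miR-6538 (0.76), miR-1946a (0.74), miR-8111 (0.69), miR-760-3p (0.69) and miR-22-3p (0.63), against a median of 0.06. None of these was among the 5 named for the other arm. The arms of the hairpin had an r of 0.64 with each other, which fell to 0.35 after centring on the group means.

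The level of the epithelial list also differed between exposures in range. Its summed level was 2244 to 5543 RPM after FA and 28268 to 51593 RPM after O3 in KO females. There 10 of 11 members had every O3 library above every FA library (19.1% over all miRNAs), and the median log2 difference was 3.62 (0.06 over all miRNAs). In KO males the sum was 2409 to 29197 RPM after FA and 26277 to 35107 RPM after O3, with 3 of 11 members separated (7.73% over all miRNAs) and a median of 1.79. Co-ex females had 21846 to 49993 RPM after FA and 39623 to 59002 RPM after O3, with 1 of 11 members separated (1.48% over all miRNAs) and a median of 0.88. Co-ex males had 5892 to 37265 RPM after FA and 4616 to 51551 RPM after O3, with 0 of 11 members separated (2.24% over all miRNAs) and a median of 0.40. None of the 11 miRNAs was at 0 in all FA libraries of a table, and the part of these cells in the miR-872 values was not tested.

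**Figure D5:**
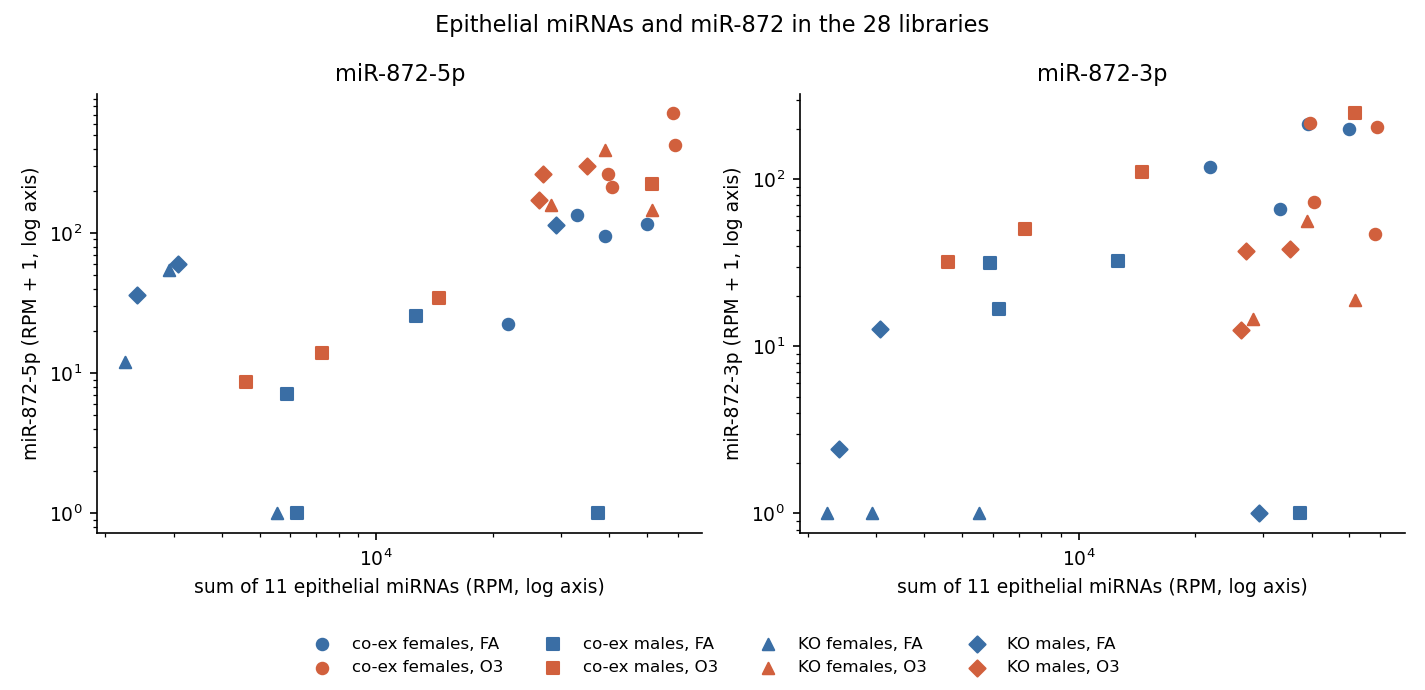
Level of mmu-mir-872-5p (left) and mmu-mir-872-3p (right) in RPM + 1 against the summed RPM of 11 epithelial miRNAs, both on log axes, one point per library, coloured by exposure and shaped by table. The co-ex male library with the highest level of both arms, at 220.9 and 246.5 RPM, has the highest epithelial sum of that table, 51551 RPM, while another male library after FA, at 37265 RPM, has no read of either arm.

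Beside single libraries, the epithelial sum of co-ex male O3 replicate 2 was 51551 RPM, against 7264, 4616 and 14543 RPM in the other O3 libraries of that group. KO male FA replicate 3, the FA library with the highest 5p value of its group, had an epithelial sum of 29197 RPM against 2409 and 3082 RPM in the others. Co-ex male FA replicate 4 had 37265 RPM of the list and no read of either arm among 181805 reads. Over the 28 libraries the centred sum had an r of 0.61 with mmu-mir-872-5p and 0.42 with mmu-mir-872-3p, and of 0.35 and -0.20 after centring on the group means.

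After centring each table on its mean, the other lists had lower correlations with either arm than the epithelial list. The list for mesenchyme and endothelium had an r of 0.46 with mmu-mir-872-5p and 0.04 with mmu-mir-872-3p. The myeloid list gave 0.11 and 0.07, the inflammation-responsive list 0.00 and 0.14, the muscle list 0.19 and 0.08, and the red cell list -0.16 and -0.11. The myeloid sum is mostly miR-21a-5p, which is also on the inflammation-responsive list and had an r of 0.13 and 0.09 by itself. After centring on the group means that order did not hold, since the mesenchyme and endothelium list then had an r of 0.43 with mmu-mir-872-5p, above the epithelial list, and the inflammation-responsive list an r of 0.17 with mmu-mir-872-3p. All of these correlations include KO male FA replicate 3, which stood apart in the mesenchyme and endothelium list. In KO females 7 of 7 tested members of the mesenchyme and endothelium list had a positive log2 difference after O3. Their median was 2.19, against 0.06 over all miRNAs. There 3 of the 8 listed members had every O3 library above every FA library (19.1% over all miRNAs). Of the 319 miRNAs that passed the filter there, 48.9% had a higher mean after O3, which is a measure on unlogged values. The summed myeloid level in KO females was 106154 to 123324 RPM after FA and 103943 to 111052 RPM after O3. The myeloid ranges after FA and after O3 overlapped in all 4 tables, with 0 of 7 members separated in each (1.48% to 19.1% over all miRNAs).

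The summed level of other lists also did not overlap between FA and O3 in co-ex females or KO females. The summed level of the red cell list in co-ex females was 12810 to 137372 RPM after FA and 2929 to 4284 RPM after O3. The inflammation-responsive list in KO females was at 175505 to 191276 RPM after FA and 138207 to 175193 RPM after O3, and the mesenchyme and endothelium list at 382 to 1571 RPM after FA and 1905 to 7091 RPM after O3. KO female O3 replicate 3, the library of its table with the highest value of both arms, had 85312 RPM of the muscle list, against 18.5 and 720.2 RPM in the other O3 libraries of the group. The part of these cells and responses in the miR-872 values was not tested.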

How the data were processed

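Small RNA libraries of AM RNA were prepared by the authors with the NEXTflex Small RNA kit (version 3) and sequenced on an Illumina HiSeq; reads passed CASAVA (version 1.8) and FASTX-Toolkit filters, and Chimira aligned and counted miRNAs, per the labels. The genome build is not given in the sources used here. Each of the 4 deposited tables holds a normalized signal per library, reads divided by a size factor, and columns of the authors' own O3 against FA comparison (mean, log2 fold change, p-value, q-value and rank), which were not used. TCC (version 1.14.0) and edgeR are named for those.

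Reads were recovered by dividing each column by the value of 1 read: 100% of values were whole multiples within 0.01, and for 5 columns fewer than 100 low values were there to judge by. No 2 replicates agreed within sampling noise (36 pairs, smallest chi-square per degree of freedom 21.8). limma (3.58.1) was fitted on log2(value + 1) per table, keeping miRNAs that reached 5 in at least the number of libraries of the smaller group. edgeR (4.0.16; TMM, filterByExpr) tested reads between tables, for miRNAs listed in both, and DESeq2 (1.42.0) was an alternative. The difference between the sexes of co-ex minus KO was tested in 1 edgeR fit of all 8 groups, a test added after the values were seen. Arm ratios were tested in Python (3.11.15, scipy 1.17.1), and the hairpin was folded with RNAfold (2.7.2). The scripts were tested on simulated data. Replicate numbers did not pair the libraries: correlations of same-numbered libraries ran from -0.28 to 0.40.

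The hairpin and the marker lists were chosen with earlier results of these data known. Named miRNAs are both arms, the 5 most correlated with each, seed sharers, neighbours within 50 kb and list members.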

Additional observations from a re-analysis of the deposited data

Results flagged for a closer look

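In co-ex males after O3, mmu-mir-872-5p was 81.2 in replicate 2 (normalized value), far above the other 3 libraries of the group at 2.88 to 10.6. It was the only such library among the 8 groups of 4 libraries checked (both arms in each co-ex group), where chance marks about 1 in 20 groups. The same library had the highest mmu-mir-872-3p value of the table (90.6) and the highest sum of epithelial miRNAs (51551 RPM), and the part of these cells was not tested. Its 5p value rests on 95 reads.

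After FA the fitted difference between co-ex and KO mice was flagged as unlike in males and females, in a test added after the values were seen. For mmu-mir-872-3p it was lower in males by a log2 value of -7.13 (SE 1.91; edgeR, adjusted p 0.0238), a fitted size that depends on the prior count because KO females had no read, and it is given as a description, since the arm was at 0 in every KO female FA library. For mmu-mir-872-5p it was -4.56 (SE 1.62; edgeR, adjusted p 0.0809), and leaving out each library in turn gave -6.68 to -4.05, with adjusted p from 0.0205 to 0.246, so this call did not hold throughout (the highest was without KO male FA replicate 3, which stood apart from its group in the mesenchyme and endothelium list, at 41362 RPM against 1231 and 1195 RPM). The same test called 15.5% of 303 miRNAs after FA and 0.33% after O3, and after O3 neither arm passed (5p -2.77, adjusted p 0.628; 3p -0.27, adjusted p 0.989).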

How the results depend on the processing

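Of 499 values under other settings, 481 stayed on the same side of the threshold, or within 1 SD where they carry no test. Some of these lay near 0 and changed sign, such as the KO arm ratio difference between the sexes. It was 0.68 as reported and as low as -0.23 with each library left out in turn. A further 12 passed the threshold where the reported value did not, 6 moved by more than the spread, and no call among the 499 was lost or reversed. The pooled folds and the comparison of the genotype difference between the sexes are not among the 499. In that comparison the 5p call after FA was lost without some libraries. Several values rest on fewer than 10 reads.

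The O3 against FA log2 difference of mmu-mir-872-3p in KO females, 3.68 as fitted, was 6.88 with a pseudocount of 0.1 and with DESeq2, 1.79 with a pseudocount of 5 and 4.64 on RPM, because the FA libraries were at 0. The response of co-ex females minus KO females for that arm was -4.92 on RPM. With KO libraries of the first run of library numbers only, chosen after the data were seen, the 5p difference in KO females, 4.04 with all libraries, was 1.70 from a single FA library.

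With DESeq2, which tests more miRNAs here, differences of 5p passed in co-ex minus KO males after FA (-3.27, adjusted p 0.0417) and in co-ex males minus females after FA (-3.22, adjusted p 0.0481) and after O3 (-2.60, adjusted p 0.0436). So did those of 3p in co-ex males minus females after FA (-2.67, adjusted p 0.0321) and co-ex minus KO males after O3 (1.77, adjusted p 0.0892). In 1 fit of all 8 groups, 5p passed after FA in co-ex minus KO males (-3.02, adjusted p 0.0886) and in co-ex males minus females (-2.92, adjusted p 0.0945). DESeq2 called 61 of 337 miRNAs in co-ex males minus females after FA and 60 of 337 after O3. In co-ex minus KO males it called 65 of 389 after FA and 105 of 389 after O3. The share of all miRNAs called in the fit of all 8 groups is not given here. Why these 5p and 3p differences passed was not tested.

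Leaving out each library in turn, the 5p difference after O3 was -3.91 to -1.69 for co-ex minus KO males and -4.50 to -2.17 for co-ex males minus females, and the 3p difference of co-ex males minus females after FA was -3.17 to -2.26.

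With the replicate number as a block, although the numbers do not pair the libraries, the 5p difference after O3 was -3.05 (adjusted p 0.018) for co-ex minus KO males and -3.49 (adjusted p 0.0532) for co-ex males minus females. The block changed no other call, and the share of all miRNAs called with it is not given here.

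With 5 reads added to each arm, the arm ratio differences were -3.85 (adjusted p 0.00327) and -1.52 (adjusted p 0.0577) for co-ex minus KO males and females and -1.25 (adjusted p 0.0577) for co-ex males minus females. The restriction to libraries with at least 10 reads was chosen after the data were seen.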
